A study of Mus musculus with 5 samples.

Results

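Keratin-rich barcodes are the cell barcodes of the sorbitol libraries that held at least 2 unique molecular identifiers (UMIs, each standing for 1 captured RNA molecule) of the keratin genes Krt8 and Krt18 added together. There were 192 of them among 29834 kept barcodes, with 28 at 200 mM, 101 at 250 mM and 63 at 300 mM sorbitol. They were set against the 28880 keratin-free barcodes, those of the same libraries with 0 UMIs of both genes. The barcodes were thus chosen by their measured Krt8 and Krt18 counts. Neither gene is therefore among the genes described below, and their UMI counts are given only to describe the rule. Both were left out of the class totals to which gene levels were scaled. They were counted in UMI medians, in mitochondrial and ribosomal shares and in the minimum level asked of a gene. The comparison is a description without a test, since each condition is 1 library and the barcodes were sorted on a measured value.

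The cells came from REX-1 RFP, an embryonic stem line of the mouse in which the promoter of Rex1 (gene Zfp42, active in naive pluripotent cells) drives a red fluorescent reporter. All cultures began in medium containing LIF (leukaemia inhibitory factor), a cytokine that maintains self-renewal of such cells. Single-cell RNA libraries were then made after 72 h in NS with LIF, in ND without LIF, and with LIF plus sorbitol, an osmolyte, at 200, 250 or 300 mM. What NS and ND stand for is not spelled out in the labels. Each condition was a single replicate of this 1 line.

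Keratin 8 and keratin 18 pair to build the intermediate filaments of simple epithelia, and in the mouse embryo they mark the trophectoderm, the outer layer that gives rise to the placenta. Embryonic stem cells resemble the inner cells of the blastocyst and seldom form trophoblast. Several imprinted genes, read from the maternal or the paternal copy alone, act in the placenta, among them H19, Peg10, Phlda2, Cdkn1c and Ascl2.

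Every library held 10000 barcodes, and 49074 of the 50000 were kept, those with 500 or more genes detected and no more than 20% of UMIs from mitochondrial genes. Library totals ran from 8404105 UMIs at 300 mM to 22158653 in NS. The median kept barcode had 2135 UMIs in NS and 801 to 939 in the other 4 libraries. Any 2 libraries shared 34 to 54 barcode sequences, and 1 keratin-rich barcode of the sorbitol libraries was also present in another library.

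Promoters of 3 genes that were higher in keratin-rich barcodes are shown first, so that their letters can be set beside the values further on: Nrk, a kinase gene active in the placenta, Phlda2, an imprinted gene that limits placental growth, and Krt7, a simple-epithelial keratin found in trophoblast. Each is the 250 bases before the start of transcription, from RefSeq on GRCm38.p6, in the direction of transcription. Nrk lies at chrX:138914180-138914429 on the plus strand, Phlda2 at chr7:143502525-143502774 on the minus strand and Krt7 at chr15:101412153-101412402 on the plus strand. Capitals mark matches to an AP-2 motif, GCCNNNGGC, which reads the same on both strands. The RefSeq starts of Phlda2 and Krt7 lie inside longer GENCODE models, and so do the bases printed for both. The model of Phlda2 is given further on, and that of Krt7 is chr15:101411043-101430313.
Nrk: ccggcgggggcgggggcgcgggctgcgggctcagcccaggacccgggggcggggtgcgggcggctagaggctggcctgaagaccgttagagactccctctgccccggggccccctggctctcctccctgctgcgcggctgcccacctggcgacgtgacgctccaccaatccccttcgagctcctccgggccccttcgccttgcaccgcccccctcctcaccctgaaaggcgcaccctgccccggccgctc
Phlda2: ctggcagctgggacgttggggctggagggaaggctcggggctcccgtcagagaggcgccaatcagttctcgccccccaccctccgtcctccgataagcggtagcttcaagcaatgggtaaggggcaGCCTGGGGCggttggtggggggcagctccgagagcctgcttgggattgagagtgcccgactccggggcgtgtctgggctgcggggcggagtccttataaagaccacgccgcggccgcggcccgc
Krt7: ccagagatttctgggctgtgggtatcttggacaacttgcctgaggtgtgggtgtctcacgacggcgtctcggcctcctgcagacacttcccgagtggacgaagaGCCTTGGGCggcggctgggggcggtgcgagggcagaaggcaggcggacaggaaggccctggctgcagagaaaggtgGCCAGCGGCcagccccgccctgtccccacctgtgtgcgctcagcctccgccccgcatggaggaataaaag

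Over the 3 sorbitol libraries together, the AP-2 factor gene Tfap2c and the genes Gata2 and Tead4, all of them trophoblast regulators, were higher in keratin-rich barcodes. Their motifs were picked for that reason, after the values were seen. Tfap2c was 1.53-fold higher, but at 0.911-fold without the 250 mM library. Tead4 rested on 6 UMIs, and without the 250 or the 300 mM library its interval included no difference. Gata2, with 19 UMIs, was under the minimum level asked of list members. In 32851 RefSeq promoter windows of 300 bases (250 before and 50 after the start), 16.6% held the AP-2 motif, 11.2% the GATA motif AGATAA and 14.7% the TEAD motif GGAATG, each searched on both strands. Of 30 genes looked up (the 12 highest genes, the markers, and trophoblast list members past the fold), 19 had an entry, with 21 windows. The AP-2 motif was in 9 of these windows, the GATA motif in 1 and the TEAD motif in 1. Phlda2 held 1 AP-2 match, Krt7 2 and Nrk 0. These matches describe letters and show no binding.

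Keratin-rich barcodes were uncommon at every dose, and their share was highest at 250 mM. They made up 0.28% of kept barcodes at 200 mM (95% Clopper-Pearson interval 0.186 to 0.405), 1.01% at 250 mM (0.823 to 1.23) and 0.64% at 300 mM (0.492 to 0.818). By the same rule NS had 135, or 1.35%, in barcodes of greater depth, and ND had 22, or 0.238%. When every barcode was thinned to 700 UMIs, the shares were 0.18% in NS, 0.206% in ND and 0.21, 0.67 and 0.447% at the rising sorbitol doses. At equal depth the intervals were 0.107 to 0.284% in NS, 0.124 to 0.321% in ND and 0.13 to 0.321% at 200 mM. They were 0.52 to 0.85% at 250 mM and 0.325 to 0.599% at 300 mM. Each condition is 1 library and barcodes are not replicates, so no difference between conditions is read from them. These intervals cover counting error alone, and variation between cultures was not measured.

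**Figure D1:**
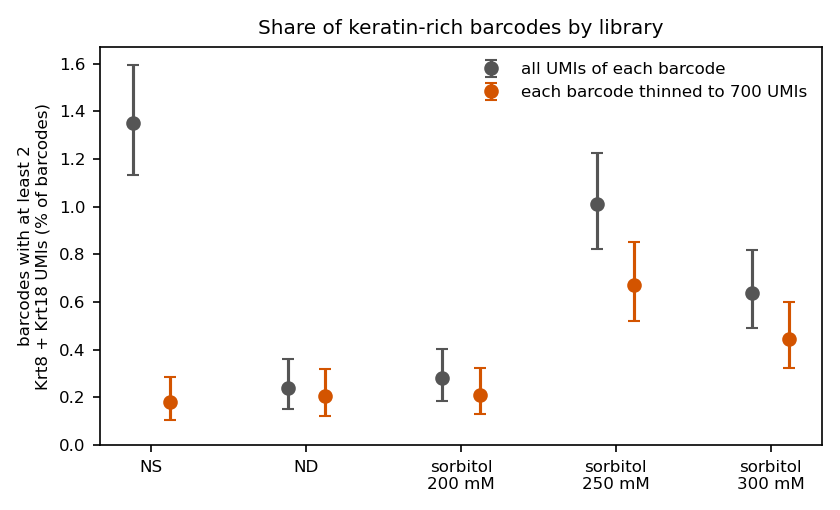
Share of barcodes with at least 2 Krt8 and Krt18 UMIs in each library, in percent, with 95% Clopper-Pearson intervals, for all UMIs (grey) and after thinning each barcode to 700 UMIs (orange). NS has the highest share on all UMIs, 1.35%, and the lowest after thinning, 0.18%, while 250 mM is the highest after thinning, 0.67%.

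The spread of the keratin UMIs describes the rule alone. These counts were used to pick the barcodes, so nothing about the class is read from them. If all barcodes of a library had drawn from its summed profile, 3.34, 17.3 and 10.1 keratin-rich barcodes would have been counted at 200, 250 and 300 mM, and the observed numbers were 8.39, 5.84 and 6.23 times that. The same ratio was 1.71 in NS and 4.95 in ND. The keratin-rich barcodes held 27.1, 52.4 and 35% of all keratin UMIs of their libraries at the 3 doses. Both keratins were present in 14 of 28, 68 of 101 and 36 of 63 of them, and the highest count in 1 barcode was 6, 12 and 7 UMIs.

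In depth and mitochondrial share the 2 classes were close, with keratin-rich barcodes slightly deeper at each dose. Median UMIs were 907 in keratin-rich against 888 in keratin-free barcodes at 200 mM, 959 against 938 at 250 mM and 809 against 801 at 300 mM. Mitochondrial genes gave 5.87 against 5.61%, 5.83 against 5.78% and 6.11 against 6.13% of their summed UMIs. Of the keratin-rich barcodes, 2 of 28, 10 of 101 and 4 of 63 were among the 5% of barcodes with most UMIs. Each is a larger share than 5%. Droplets with 2 cells would be sought there, and whether these held 2 cells was not tested. Without that 5%, none of the ratios of the 112 genes named by rule moved beyond its counting interval.

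CPM is UMIs per 1000000 UMIs of the class, with Krt8 and Krt18 left out. For the minimum of 20 CPM it was taken over all kept barcodes with both genes counted. Genes of at least 20 CPM in each sorbitol library numbered 5882. In all 3 libraries 129 of them (2.19%) were at least 1.5-fold higher in keratin-rich barcodes, and 41 (0.697%) were at least 1.5-fold lower. In 17 of the higher genes (0.289%) the counting interval was also clear of no difference in every library: Rhox6, Rhox9, H19, Dusp9, Peg10, Peg3, Fabp3, Col4a2, Hmox1, Anxa2, Cited2, Tnfaip1, Actg1, Actn1, Esd, Rbbp7 and Tmsb4x. The same held for 3 of the lower genes (0.051%), Upp1, Atrx and Chchd10. In single libraries the 1.5-fold mark alone was passed upward by 23.5, 16 and 18.5% of these genes at 200, 250 and 300 mM, and downward by 11.4, 20.6 and 20.4%. Since the barcodes were sorted in the same libraries, nothing is read from these shares.

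Several imprinted and X-linked genes with placental roles were among the 12 highest. H19, a maternally expressed long non-coding RNA (chr7:142575529-142578143, minus strand), was at 5446 CPM in keratin-rich and 899 CPM in keratin-free barcodes at 200 mM. At 250 mM its levels were 7761 and 636 CPM, and at 300 mM 5620 and 838 CPM. H19 was thus higher in the keratin-rich class of each library, by 2.60, 3.61 and 2.75 on the log2 scale, and 9.26-fold over the 3 libraries together (95% interval 8.74 to 9.81).

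Peg10, a retrotransposon-derived imprinted gene needed for the placenta (chr6:4747306-4760517, plus strand), was at 977, 1374 and 635 CPM in keratin-rich barcodes of the 3 doses, and at 185, 172 and 167 CPM in keratin-free ones. Its log2 ratios were 2.40, 3.001 and 1.93. Peg3, a paternally expressed zinc finger gene, had log2 ratios of 1.61, 1.49 and 0.91. All 3 genes were higher in the keratin-rich class at each dose.

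Rhox6 and Rhox9 are homeobox genes of the X-linked reproductive homeobox cluster, expressed in placenta and germ cells. Rhox6 (chrX:37826910-37829857, plus strand) was at 676, 903 and 485 CPM in keratin-rich against 52.5, 64.0 and 53.2 CPM in keratin-free barcodes. This was the largest combined ratio among the 12 highest genes, 12.6-fold (10.5 to 15.1), from 18, 92 and 26 UMIs. Rhox9 (chrX:37899097-37901770, minus strand) had log2 ratios of 2.10, 3.42 and 2.96, the first from 5 UMIs. Reads shared between members of this cluster could not be checked.

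Nrk (chrX:138914430-139010532, plus strand) was at 188, 755 and 355 CPM in keratin-rich barcodes and at 105, 106 and 71.1 CPM in keratin-free ones. At 250 and 300 mM the log2 ratios were 2.84 and 2.32. At 200 mM the ratio of 0.84 rested on 5 UMIs, and its interval, -0.78 to 2.07, included no difference. Without the 250 mM library the combined log2 ratio of Nrk was 1.86 in place of 2.54.

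Hand1, a basic helix-loop-helix factor of trophoblast giant cells and heart (chr11:57828705-57832818, minus strand), was at 188, 157 and 131 CPM in keratin-rich and at 58.7, 43.8 and 56.3 CPM in keratin-free barcodes. Its log2 ratios were 1.68, 1.84 and 1.21, and the interval at 300 mM, -0.11 to 2.27, included no difference. With H19, Peg10 and Nrk it makes up the markers given with the 2 keratins for these barcodes. All 4 had combined ratios above 1 with their intervals, from 3.10-fold for Hand1 to 9.26-fold for H19.

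Dusp9, a phosphatase of MAP kinases that is needed in the placenta (chrX:73639419-73643514, plus strand), had log2 ratios of 2.68, 2.88 and 2.27. Fabp3, a fatty acid binding protein gene (chr4:130308595-130315463, plus strand), was at 1953, 2639 and 1792 CPM against 599, 615 and 673 CPM, a combined ratio of 3.64-fold. Rbbp7, which encodes a histone-binding subunit of chromatin complexes, had log2 ratios of 1.12, 1.79 and 0.82. All 3 genes were higher in keratin-rich barcodes in each library, and for Rbbp7 the 250 mM ratio was the largest.

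The other genes among the 12 highest have varied roles. Col4a2, a basement membrane collagen chain, had log2 ratios of 2.55, 2.25 and 3.04, from 6, 20 and 18 UMIs. Hmox1, which degrades haem, had ratios of 2.39, 1.69 and 1.82. Anxa2, a membrane-binding annexin, had 2.05, 1.62 and 2.45. Actg1, which encodes cytoplasmic gamma actin, had smaller ratios of 0.80, 0.90 and 0.66, resting on 46, 170 and 98 UMIs. Esd, an esterase gene, had 1.57, 1.14 and 1.33. For each of these 5 genes the interval lay above 0 at all 3 doses.

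**Figure D2:**
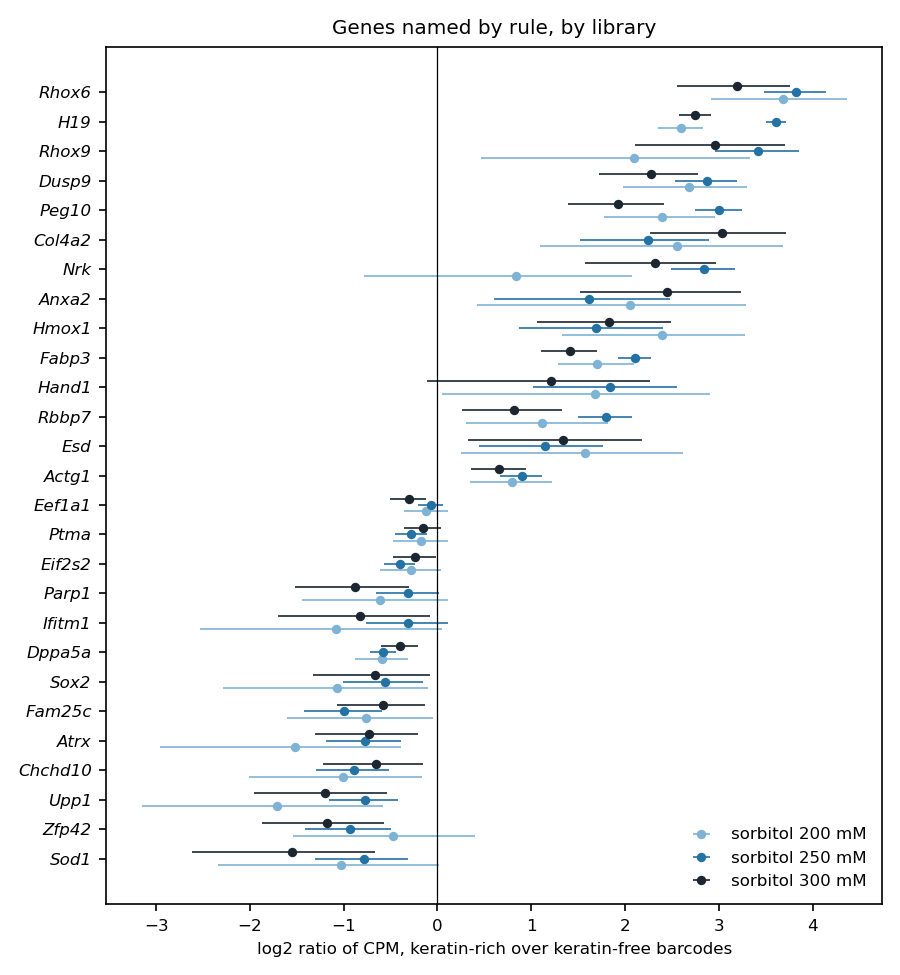
Log2 ratio of CPM in keratin-rich over keratin-free barcodes (x axis) for the 24 genes named by rank and for Nrk, Hand1 and Zfp42 (y axis), with 1 point per sorbitol library and 95% counting intervals. Rhox6, at 3.69, 3.82 and 3.19, has the largest combined ratio, and Upp1, at -1.71, -0.78 and -1.20, lies at the lower end.

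Single barcodes showed the same contrast. H19 was detected in 24 of 28, 95 of 101 and 55 of 63 keratin-rich barcodes, with medians of 3, 7 and 4 UMIs and maxima of 17, 28 and 19. In keratin-free barcodes it was detected in 36.6, 27.6 and 32.3%, with a median of 0. Thinned to 700 UMIs a barcode, H19 was detected in 82.1, 90.1 and 85.7% of keratin-rich and in 31.6, 22.7 and 29.3% of keratin-free barcodes. No cell type known to lack H19 was among the libraries, so the level that free RNA alone would give was not measured.

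At least 1 UMI of Rhox6, Rhox9, Peg10 or Nrk was found in 85.7% of keratin-rich barcodes at 200 mM, 83.2% at 250 mM and 57.1% at 300 mM. In keratin-free barcodes the shares were 28.1, 28.6 and 22.6%. The share at 300 mM was the lowest in both classes. Keratin-rich barcodes with 5 or more H19 UMIs, a split made after the values were seen, numbered 11, 64 and 26. Of these, 90.9, 90.6 and 88.5% held at least 1 UMI of the 4 genes.

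At 300 mM the keratin-rich barcodes differed among themselves by their H19 count. Of its 29 keratin-rich barcodes with 1 to 4 H19 UMIs, 34.5% held a UMI of the 4 genes, and of the 8 without H19, 37.5% did. Split by the keratins detected, Nrk was at 569 CPM in the 36 barcodes of that library with both keratins and at 84.4 CPM, from 2 UMIs, in the 27 with 1 keratin alone. Rhox6 was at 502 and 464 CPM and Peg10 at 636 and 633 CPM in the same split. For Nrk the split gave 159 and 214 CPM at 200 mM, from 2 and 3 UMIs, and 701 and 868 CPM at 250 mM, with the order turned around.

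**Figure D3:**
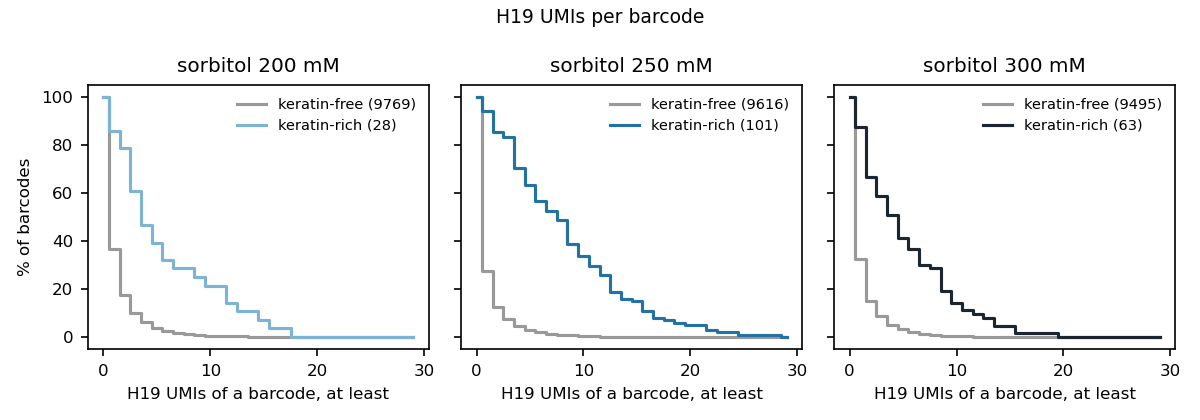
Percent of barcodes (y axis) with at least a given number of H19 UMIs (x axis) in keratin-rich (coloured) and keratin-free (grey) barcodes of each sorbitol library, with the number of barcodes in brackets. The keratin-rich line lies above the keratin-free line at each dose, and the median is 3, 7 and 4 UMIs against 0.

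A small set of keratin-free barcodes was also high in H19. There were 383, 300 and 329 keratin-free barcodes with 5 or more H19 UMIs, or 3.92, 3.12 and 3.46%. Fabp3 was at 1823 CPM in those of 250 mM against 523 CPM in keratin-free barcodes with no H19. Rhox6 was at 320 CPM against 42.9 CPM in the same pair. Both genes were higher in the H19-high keratin-free barcodes at 200 and 300 mM too, with Rhox6 at 173 against 37.7 CPM and 172 against 36.8 CPM.

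Levels changed in steps across the threshold. In barcodes with 0, 1 and 2 keratin UMIs, H19 was at 899, 2481 and 4625 CPM at 200 mM, at 636, 3529 and 7928 CPM at 250 mM and at 838, 2935 and 5089 CPM at 300 mM. The 188, 283 and 291 barcodes with 1 keratin UMI, just outside the threshold and in neither class, thus lay between the classes. Those with exactly 2 UMIs, just inside, numbered 20, 54 and 41. At 250 mM the level was 7658 CPM with 3 and 7508 CPM with 4 or more keratin UMIs, within the counting interval of the barcodes with 2. At 200 mM it was 9052 CPM with 3 (4 barcodes, 6269 to 12650 CPM), above the interval of those with 2, and 5990 CPM with 4 or more. Those 4 barcodes held 0, 2, 15 and 17 H19 UMIs, a spread between barcodes that the counting interval leaves out, so no difference is read from it. At 300 mM it was 7063 and 5202 CPM. Zfp42 was lower with more keratin UMIs at 300 mM, with 888, 714, 455, 283 and 236 CPM from 0 to 4 or more, the last from 1 UMI. At 250 mM it was 787, 607, 425, 398 and 397 CPM. At 200 mM it was 524, 407, 315, 532 and 521 CPM, the last values from 2 UMIs each and back at the keratin-free level.

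**Figure D4:**
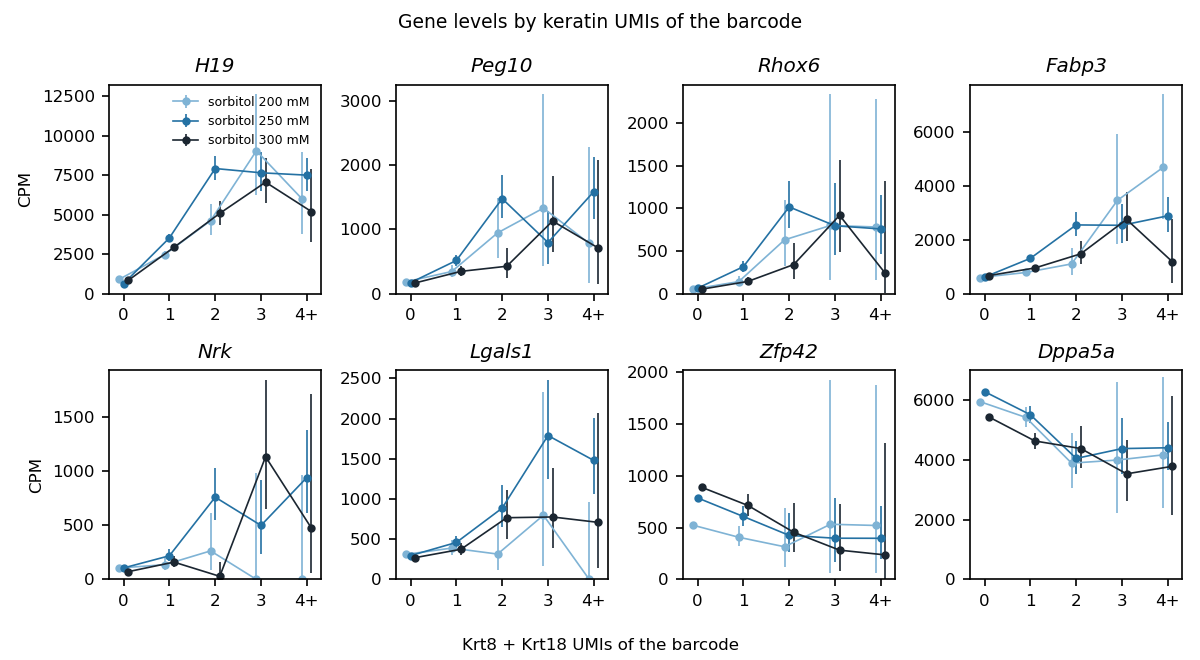
CPM (y axis) of 8 genes in barcodes with 0, 1, 2, 3 and 4 or more Krt8 and Krt18 UMIs (x axis), by sorbitol library, with 95% Poisson intervals. H19 at 250 mM goes from 636 CPM at 0 to 7928 CPM at 2 keratin UMIs, and points at 3 and 4 or more rest on 4 to 27 barcodes.

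Gene lists were counted over the 3 libraries together, with a member called when at least 1.5-fold different and its interval clear of no difference. Over all 9853 genes of at least 5 CPM in each sorbitol library, 449 were higher (4.56%) and 179 lower (1.82%), with a median log2 ratio of -0.01. These shares over all genes were not computed with a library left out. Leaving out 250 mM removes 101 of the 192 keratin-rich barcodes, so nothing is read from the counts of genes called without a library. Single libraries gave medians of 0.50, 0.09 and 0.19 over the genes with a UMI in the keratin-rich class, which leaves out genes at 0. In the trophoblast list 14 of 17 measured members were higher and 0 lower, with a median of 1.99. The list was drawn up with these barcodes' markers in view and holds Peg10, Nrk and Hand1. Summed, its members were 5.56-fold higher (5.17 to 5.97), 5.46-fold without those 3 genes, and 3.89-fold (3.43 to 4.41) when Rhox6 and Rhox9 were left out as well. By dose the summed ratios were 3.93, 6.72 and 4.08, and leaving out the 250 mM library gave 4.03.

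The members called reached from regulators to secreted products. Tfap2c was 1.53-fold higher, with 0, 20 and 7 UMIs by dose. Tead4 was 3.97-fold higher from 6 UMIs, and Ets2, another trophoblast transcription factor, 3.95-fold from 9 UMIs. Id2, an inhibitor of basic helix-loop-helix factors, was 6.82-fold higher, and Plet1, a surface protein of early trophoblast, 5.21-fold. Sct, the hormone secretin, was 7.38-fold higher from 1, 15 and 2 UMIs, and Phlda2 19.2-fold from 28 UMIs where 1.46 were expected. Of those 28 Phlda2 UMIs, 23 came from the 250 mM library, without which the gene was 8.77-fold higher. Without that library 10 list members were called: Sct was at 2.78-fold and Tead4 at 3.83-fold with intervals that included no difference, Tfap2c was at 0.91-fold, and Wnt7b had 0 UMIs. Tead4 and Tfap2c were also not called without the 300 mM library, at 3.28- and 1.63-fold.

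Eomes, a factor of trophoblast stem cells and of mesoderm, was not called, with 10 UMIs against 5.39 expected. Cdh3 and Fgfr2 were not called either, with 2 and 1 UMIs. The other 14 list members were under the 5 CPM minimum. Among them Gata2 had 19 UMIs in keratin-rich barcodes against 0.88 expected, Krt7 15 against 0.91, Plac1 7 against 0.13, Ascl2 6 against 0.59, Dlx3 5 against 0.59 and Gata3 4 against 0.45. Cdx2, a defining trophectoderm factor, had 1 UMI. Elf5 of trophoblast stem cells, Gcm1 and Syna of syncytiotrophoblast, Tpbpa of spongiotrophoblast and Prl3d1 of giant cells had 0 UMIs. Less than 1 was expected for each, so that a lower level was not detectable at this depth, while a higher one could have been, as in Plac1.

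Genes of the epithelial skeleton and junctions were higher in part. In the list of keratins and desmosome genes, 5 of 9 measured members were higher: Krt19 (4.70-fold), Dsp (3.63-fold), Pkp2 (2.46-fold), Perp (2.55-fold) and Jup (1.62-fold). Without the 250 mM library 2 genes of this list were called, with Dsp at 1.72-fold, Pkp2 at 2.10-fold and Perp at 2.35-fold not called. Jup was not called without 200 mM (1.41-fold) or 300 mM (1.47-fold), nor Perp without 300 mM (2.11-fold). At 200 mM Krt19 had 2 UMIs, and its ratio of 0.81 had an interval from -2.24 to 2.67. Of 21 epithelial junction genes, 5 were higher: Cldn6, Cldn7, Elf3, Prss8 and Pard6b, of which Elf3 and Pard6b were not called without 250 mM. Prss8, 1 of the 5, reached the 5 CPM minimum at 200 mM only with keratin-rich barcodes counted. Nothing is read from its call or from the count of 5 of 21. Prss8 was at 5.42 CPM over all kept barcodes and 4.88 CPM in keratin-free ones. In the keratin and desmosome list 1 of the 9 measured genes was likewise under the minimum in keratin-free barcodes of a library. Which gene this was is not given here, so nothing is read from the count of 5 of 9. Cdh1 and Epcam, epithelial adhesion genes that embryonic stem cells also express, had combined log2 ratios of 0.42 and -0.12 and were not called.

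Genes of calcium-binding and cortical proteins were higher in part. In the list of S100, annexin and galectin genes, 8 of 15 were higher, among them Ahnak (5.82-fold), Anxa5 (4.38-fold), Lgals3 (3.65-fold) and Lgals1 (3.30-fold). In the actin list 11 of 27 were higher, with Cnn2, which binds actin, at a log2 ratio of 2.68, Gsn, which severs filaments, at 5.54-fold from 1, 8 and 1 UMIs and Tagln2 at 3.31-fold. Tmsb4x, a monomeric actin binder on the X chromosome, was 2.24-fold higher from 367 UMIs. Lgals1 had log2 ratios of 0.12, 2.05 and 1.498 by dose, with an interval from -1.01 to 1.05 at 200 mM. Without the 250 mM library 7 of the actin genes were called, Gsn was at 2.19-fold and not called, Ahnak was at 3.87-fold and Lgals1 at 2.19-fold.

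Of 21 measured imprinted genes, 6 were higher (H19, Igf2, Peg10, Peg3, Phlda2 and Slc38a4) and 0 lower, and the other 15 were not called. The median log2 ratio of the list was 0.26, against a summed ratio of 4.03-fold that H19 dominates by its count. Igf2, the growth factor gene next to H19, was 7.71-fold higher from 18 UMIs, with 5, 12 and 1 by dose. At 300 mM it was 1.32-fold, and its log2 interval, -4.92 to 2.91, included no difference. Cdkn1c, a cell cycle inhibitor gene under the CPM minimum, had 29 UMIs against 0.905 expected, of which 22 at 250 mM, without which it was 17.3-fold higher. Slc38a4 was not called without that library, at 1.35-fold. H19, Igf2 (chr7:142650766-142666816), Cdkn1c (chr7:143458339-143461050) and Phlda2 (chr7:143501545-143503150) all lie in the distal imprinted region of chromosome 7.

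Position on the X chromosome was also counted, after the values were seen. Of the 129 genes higher in all 3 libraries, 10 (7.75%) were X-linked, and of the 17 with clear intervals 5 were (Rhox6, Rhox9, Dusp9, Rbbp7 and Tmsb4x). Of all 5882 genes measured, 217 (3.69%) were X-linked. Of the 41 lower genes 5 were X-linked, Atrx among them, and the median combined log2 ratio of the 217 X-linked genes was -0.12. Xist, the RNA that silences an X chromosome, was at 7.92, 9.42 and 13.1 CPM over all kept barcodes at the 3 doses. It was thus under the 20 CPM minimum but past that of 5 CPM, and it was called higher over the 3 libraries together. In keratin-rich barcodes Xist had 7, 11 and 8 UMIs, 18.3-fold more than expected from keratin-free ones.

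The pluripotency lists were lower when summed, while a minority of their members were called. Of 20 measured naive pluripotency genes, 7 were called lower and 0 higher, with a median log2 ratio of -0.59. Summed, the naive list was at 0.666-fold (0.628 to 0.706), and at 0.717-fold without the 250 mM library. Zfp42, whose promoter drives the reporter (chr8:43295063-43306980, minus strand), was at 376, 412 and 392.1 CPM in keratin-rich barcodes and at 524, 787 and 888 CPM in keratin-free ones. Its log2 ratios were -0.48, -0.93 and -1.18, with an interval at 200 mM from -1.54 to 0.40. The keratin-rich levels at the 3 doses lay close to one another, and the keratin-free level was lowest at 200 mM.

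The other naive genes called lower were Klf2, Tbx3, Esrrb, Spp1, Pecam1 and Zfp57. Without the 250 mM library, 2 naive genes were called: Esrrb was at 0.918-fold and Klf2, Tbx3, Spp1 and Pecam1 at 0.425- to 0.744-fold, none called. Without 300 mM, Klf2, Spp1, Pecam1 and Zfp57 were not called. Dppa5a was at 3944, 4209 and 4107 CPM against 5947, 6282 and 5430 CPM, so it was still abundant in keratin-rich barcodes. Nanog and Klf4 had combined log2 ratios of -0.55 and -0.47 and were not called.

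The core pluripotency list had a median log2 ratio of -0.60. Summed, it was at 0.658-fold (0.602 to 0.719), and at 0.711-fold without the 250 mM library. Of its 14 genes, 6 were called lower (Sox2, Utf1, Tdgf1, Trim28, Rif1 and Gdf3) and 0 higher, and without the 250 mM library 3 were called. Of the 6, Utf1, Trim28, Rif1 and Gdf3 lost their call there, at 0.436-, 0.826-, 0.693- and 0.437-fold. Rif1 was also not called without 200 mM, nor Utf1 without 300 mM. Sox2, the partner of Oct4, was at 300.5, 461 and 429 CPM against 633, 681 and 682 CPM, lower at each dose. Pou5f1, which encodes Oct4, had log2 ratios of 0.29, -0.93 and -0.39 from 6, 13 and 7 UMIs, and it was not called. Of 12 genes responsive to LIF and STAT3, 1 was lower, Bcl3, with 0 UMIs against 4.99 expected.

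The remaining genes among the 12 lowest have varied roles. Upp1, a uridine phosphorylase gene, was at 225, 618 and 336 CPM against 737, 1059 and 770 CPM, with log2 ratios of -1.71, -0.78 and -1.20. Sod1, which detoxifies superoxide, had -1.03, -0.79 and -1.55, Chchd10, a mitochondrial protein gene, -1.01, -0.89 and -0.66, and Atrx, a chromatin remodeller, -1.52, -0.78 and -0.73. Eif2s2, Eef1a1, Ptma, Parp1, Ifitm1 and Fam25c complete the 12 lowest, with Eef1a1 as near to 0 as -0.12, -0.07 and -0.31. The order follows the interval bound nearest to or past 0, so abundant genes with small ratios are among them.

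Markers of other cell types were given the same count. Of 14 measured primitive endoderm genes, 4 were higher, Col4a1, Col4a2, Sparc and Nid1, all matrix or basement membrane genes. Summed, the list was 1.92-fold higher (1.71 to 2.15), and by dose 1.36-, 1.89- and 2.19-fold. Sparc was not called without the 300 mM library (1.42-fold), nor Nid1 without 250 mM (2.05-fold) or 300 mM (1.88-fold). The defining endoderm factors Sox17, Sox7, Foxa2 and Hnf4a and the receptor gene Pdgfra had 0 UMIs, each with less than 1 expected. Gata6 had 0, 2 and 2 UMIs against 1.54 expected in all, and Gata4, under the CPM minimum, 3 against 0.56, all at 250 mM. Gata6 was 2.59-fold and not called. Summed, the fibroblast list was at 0, 108 and 18.7 CPM in keratin-rich and at 37.8, 27.4 and 31.3 CPM in keratin-free barcodes, with Col1a1, Col1a2, Col3a1, Postn, Lum and Dcn at 0 UMIs and Acta2 and Tagln at 5 each, all at 250 mM. Of the mesoderm list, Hand1 was higher and Eomes was measured but not called, and T, Mixl1, Mesp1 and Kdr had 0 UMIs. Neuroectoderm and cleavage-stage-like lists had 0 of 3 and 0 of 2 measured members called.

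Stress and growth lists were counted last. Of 8 metallothionein, ferritin and haem genes, 4 were higher, Mt1, Mt2, Ftl1 and Hmox1, and the summed list was 1.55-fold higher. Mt1 was not called without 250 mM (1.22-fold), nor Ftl1 without 200 mM (1.41-fold). Of 10 hyperosmotic response genes, 2 were higher, Hspa1b and Slc2a1. Hspa1b had 0, 10 and 1 UMIs, and without the 250 mM library it was at 1.02-fold and not called. The osmolyte transporter genes Slc5a3 and Slc6a6 had combined log2 ratios of 0.37 and 0.19. None of 30 genes of G2 and M phase was called in either direction, nor any of 13 mitochondrially encoded or 87 ribosomal protein genes. Of 28 S phase genes 1 was higher and 1 lower. Summed ribosomal protein UMIs were 23.9, 20.4 and 20.5% of keratin-rich and 25.3, 22.6 and 21.3% of keratin-free barcodes.

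**Figure D5:**
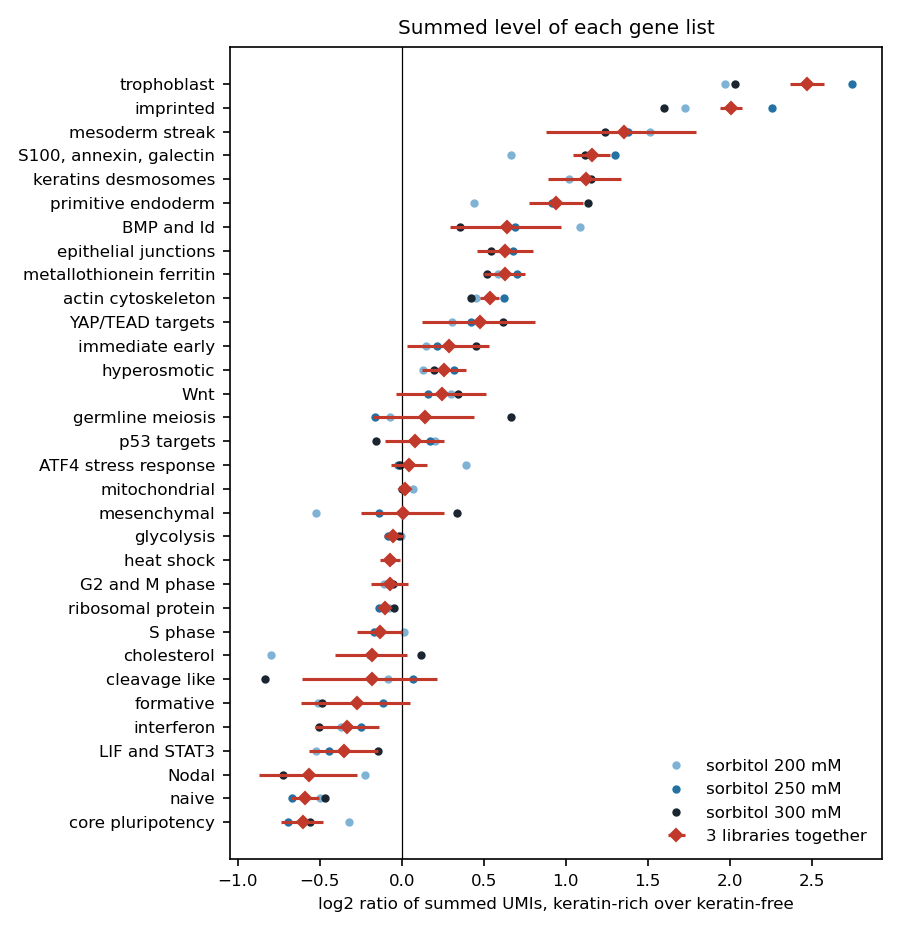
Log2 ratio of summed UMIs in keratin-rich over keratin-free barcodes (x axis) for gene lists with at least 40 UMIs in keratin-rich barcodes (y axis), with the 3 sorbitol libraries together (red, 95% counting interval) and each library (blue and black). The trophoblast list is highest, at 2.47, and core pluripotency lowest, at -0.60.

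The same rule in the libraries without sorbitol gave barcodes with some of these genes. In NS the 135 keratin-rich barcodes had H19 at a log2 ratio of 3.03, Peg10 at 1.67 and Nrk at 2.22, whereas Rhox6 was at 0.95, Dusp9 at 0.30 and Fabp3 at 0.49. Hand1 was detected in 15.6% of keratin-rich and 5.86% of keratin-free barcodes of NS. In ND the ratios were 2.98 for H19, 2.36 for Peg10 and 1.33 for Rhox6, in 22 barcodes. These rested on few UMIs, with H19 detected in 10, Peg10 in 4 and Rhox6 in 8 of the 22. Hand1 was detected in 1 of them and Nrk in 0. The summed trophoblast list was 2.17-fold higher in NS and 2.43-fold in ND, against 3.93, 6.72 and 4.08 in the sorbitol libraries. In NS, where barcodes are deeper, 78.9 of the 135 barcodes would have been counted from the summed profile, so the values stand side by side without a comparison.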

How the data were processed

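Each library was deposited as a droplet matrix holding raw counts of unique molecular identifiers (UMIs). Per the file headers, the authors produced these counts using Cell Ranger 6.0.1. The submitters' processing notes also list Seurat 4.1.1, R 4.1.2 and the build mm10, with no role stated. The labels' protocols name Trizol lysis and a Lexogen 3' kit, and how that applies to droplet matrices was not settled. For strand use, annotation and the choice of barcodes, no statement is given in the sources used here. Overlapping genes and near-identical copies, such as members of the Rhox cluster, metallothioneins and ferritin light chain, are therefore uncertain.

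Of 50000 barcodes 49074 were kept, requiring 500 or more detected genes and no more than 20% mitochondrial UMIs. No doublet caller was run. UMIs were summed over the keratin-rich and over the keratin-free barcodes of a library and scaled to CPM, with Krt8 and Krt18 left out of the totals. Ratios have exact conditional binomial 95% intervals, levels Poisson intervals and shares Clopper-Pearson intervals. All cover counting error only. Where a count was 0, the ratio is a bound computed with 3 UMIs. For the 3 sorbitol libraries together, UMIs of keratin-rich barcodes were divided by those expected from the keratin-free barcodes of the same libraries. This combined ratio, leaving out each library, thinning to 700 UMIs and a rule that the interval clear 1 were added after the values were seen. Each condition has 1 library, so no p-value is given.

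Genes were named by rule: the 12 highest and 12 lowest among genes of at least 20 CPM in each sorbitol library, on the same side in all 3 and ranked by the worst interval bound, leaving out mitochondrial, ribosomal protein and unnamed models. H19, Hand1, Peg10, Nrk, Zfp42, Nanog, Pou5f1, Sox2, Klf4, Krt19, Ly6a and Gata6 were added, with up to 4 members of each of 33 gene lists. Further list members, low-count genes and X-linked genes named in the text were chosen after their values were seen. List members were counted at 5 CPM or more in each sorbitol library, over all kept barcodes with the keratin-rich ones included. Of 9853 genes measured in this way, 24 were under that minimum in the keratin-free barcodes of a library. The barcodes, markers and lists were chosen with earlier results of these data known. The calculation was tested on simulated data. Alternatives were thinning to 500 UMIs, depth weighting in 10 bins, a minimum of 3 keratin UMIs, 1 UMI of each keratin, no barcode filter, leaving out the 5% of barcodes with most UMIs, 2 other scalings, minimums of 5 and 50 CPM and leaving out each library. Coordinates (1-based, mm10, that is GRCm38) were read from the GENCODE M21 annotation, and promoter sequences from RefSeq (GRCm38.p6). Python 3.11.15, NumPy 2.4.6, SciPy 1.17.1, pandas 2.3.3 and Matplotlib 3.10.9 were used.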

Additional observations from a re-analysis of the deposited data

How the results depend on the processing

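Each condition is 1 library, and no paired analysis was possible because no condition has a second one. Shares of keratin-rich barcodes at 200, 250 and 300 mM were 0.0901, 0.42 and 0.305% after thinning to 500 UMIs, 0.0801, 0.47 and 0.223% with at least 3 keratin UMIs, and 0.14, 0.68 and 0.366% with 1 UMI of each keratin. Thinning to 700 UMIs gave 0.67% at 250 mM and 0.447% at 300 mM. The 129 genes higher in all 3 libraries were 38 at a minimum of 50 CPM, 279 of 9853 at 5 CPM and 17 with clear intervals. The number of genes measured at 50 CPM was not recorded. The 41 lower genes were 27 after thinning to 500 UMIs, 13 with at least 3 keratin UMIs, 18 with each keratin and 3 with clear intervals. In the keratin and desmosome list, 3 genes were higher after thinning to 500 UMIs, with at least 3 keratin UMIs and with each keratin. In the naive list 4 were lower after thinning and 3 with at least 3 keratin UMIs, and in the core list 3 with median-of-ratios scaling. Leaving out each library gave 10 to 14 trophoblast, 2 to 4 keratin and desmosome, 7 S100, annexin and galectin, and 7 to 12 actin genes higher. It gave 2 to 7 naive and 3 to 6 core genes lower. The share of all genes called was not computed for these settings, so the counts have no background. Median-of-ratios scaling moved all ratios up by a constant in each library, for example H19 over the 3 libraries from 3.21 to 3.30 and Zfp42 at 200 mM from -0.48 to -0.36 on the log2 scale. Of 1455 values recomputed for 112 named genes, 58 moved beyond their counting interval, and the cause of these moves was not tested. Among ratios of at least 1.5-fold with an interval clear of no difference, 0 changed direction. Changes of direction in smaller or less certain ratios were not counted. Depth limits all genes under about 10 UMIs in the keratin-rich class, most of all at 200 mM with 28 barcodes.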
